A study of Homo sapiens with 4 samples.

Results

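The transcriptome of cells that received a mimic of the microRNA miR-214 was compared with that of cells that received a control duplex. This is the comparison of 2 of the 4 arrays of a study on miR-214 and the long noncoding RNA PVT1. The cells carried the label HepG2, a line from a human liver tumour, and were grown in RPMI-1640 medium with 10% fetal bovine serum. They were transfected with INTERFERin and 1 of 4 small duplex RNAs. The groups were NC, a duplex with no homology to the human genome; the miR-214 mimic; and siPVT1-1 and siPVT1-2, small interfering RNAs against PVT1. All 4 groups share the transfection reagent and differ by the labels only in the duplex. Each duplex was represented by 1 array, so no difference here has a replicate check and no test was run. The dose, the time between transfection and RNA extraction, and the strand carried by the mimic are not given in the sources used here. Members were chosen by level alone: a gene was compared when the mean log2 intensity of its brightest probe over the 4 arrays exceeded 9.72, the median of all probes. Of 19090 genes named on the array, 10668 passed, and 10666 were compared after 2 that lay at the floor of 64 intensity units were left out.

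A microRNA is a short RNA that guides an Argonaute protein to messenger RNAs. Pairing is led by the seed, bases 2 to 8 from its 5′ end, usually to sites in the 3′ untranslated region, and lowers the stability or translation of the paired transcript. A mimic is a synthetic duplex that supplies such a strand from outside the cell. The MIR214 gene is transcribed within DNM3OS, antisense to the dynamin gene DNM3, and miR-214 has been studied in liver tumours, where XBP1, CTNNB1, E2F3 and EZH2 are among its published targets.

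Both mature strands of the MIR214 hairpin are shown because either could define the seed that the mimic brought in. The sequences are RefSeq's on GRCh38.p14, written 5′ to 3′. In the hairpin, at chr1:172138798-172138907 on the minus strand, capitals mark the 5p arm and then the 3p arm. In the mature strands, at chr1:172138857-172138878 for 5p and chr1:172138816-172138837 for 3p, capitals mark the seed.
MIR214 hairpin: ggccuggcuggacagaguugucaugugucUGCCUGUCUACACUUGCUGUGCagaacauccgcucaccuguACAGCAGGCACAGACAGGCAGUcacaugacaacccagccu
hsa-miR-214-5p: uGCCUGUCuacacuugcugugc
hsa-miR-214-3p: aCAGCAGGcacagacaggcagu

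The seed of the 3p strand, the better known of the pair, is shared by a pair of other human microRNAs among the 2545 mature strands searched. They are hsa-miR-3619-5p, at chr22:46091059-46091080 on the plus strand, and hsa-miR-761, at chr1:51836375-51836396 on the minus strand. Capitals again mark the seed, and the letters after it differ between the 3 strands.
hsa-miR-3619-5p: uCAGCAGGcaggcuggugcagc
hsa-miR-761: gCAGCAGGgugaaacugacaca

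Transcript sequences were not used here, so sites for these seeds in the genes below were not counted. The level of the mature microRNA was not measured by these probes, and DNM3OS had no named probe, so uptake of the mimic was not checked.

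Before normalization the arrays had median intensities of 926.9 (NC), 828.1 (mimic), 835.9 (siPVT1-1) and 784.1 (siPVT1-2). Liver cell genes were dim for cells of this label. Of 14 hepatocyte markers with a probe, 2 passed the level filter, and albumin (ALB) had normalized log2 intensities of 6.73 on NC, 6.70 with the mimic, and 6.94 and 6.87 with siPVT1-1 and siPVT1-2. The log2 of the summed hepatocyte markers ran from 12.29 to 12.47. Markers of squamous and other epithelium passed the filter for 7 of 9, and their log2 sum was 17.81 on NC, 18.26 on the mimic array and 18.19 and 18.46 on the siRNA arrays. That list is mixed: it holds KRT14 as well as KRT8, KRT18 and KRT19, and KRT18 alone read 17.03 on NC. For fibroblast markers 5 of 12 passed, with log2 sums of 17.73 on NC, 18.01 on the mimic array, and 17.98 and 18.16 on the siRNA arrays. AFP, TTR and APOB, also genes of liver cells, lay under the filter level on every array. Whether the cells match the label HepG2 was not tested. In bulk RNA, fewer cells of a type and less RNA per cell cannot be told apart.

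Levels below are normalized log2 intensities, and differences are log2 differences from NC. The words higher and lower mean at least 2-fold, which is a rule of size and not a test. By this rule 208 genes, 1.95% of those compared, were higher with the mimic than with NC, and 303 genes, 2.84%, were lower. At the edge of the rule, MARK2 and PRDX4 differed by 1.002 and 1.001 and were counted, while MAGEA6 and RBM48 differed by 0.9995 and 0.9979 and were not. The split depends on scaling: when arrays were instead centred on their medians, the counts became 351 higher and 203 lower, and the median of all genes then lay at 0.108 instead of -0.02. Against NC, siPVT1-1 differed by 2-fold at 133 genes higher (1.25%) and 183 lower (1.72%), and siPVT1-2 at 142 higher (1.33%) and 128 lower (1.2%). All 3 comparisons use the same NC array, so a deviation of that array would enter each of them.

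**Figure D1:**
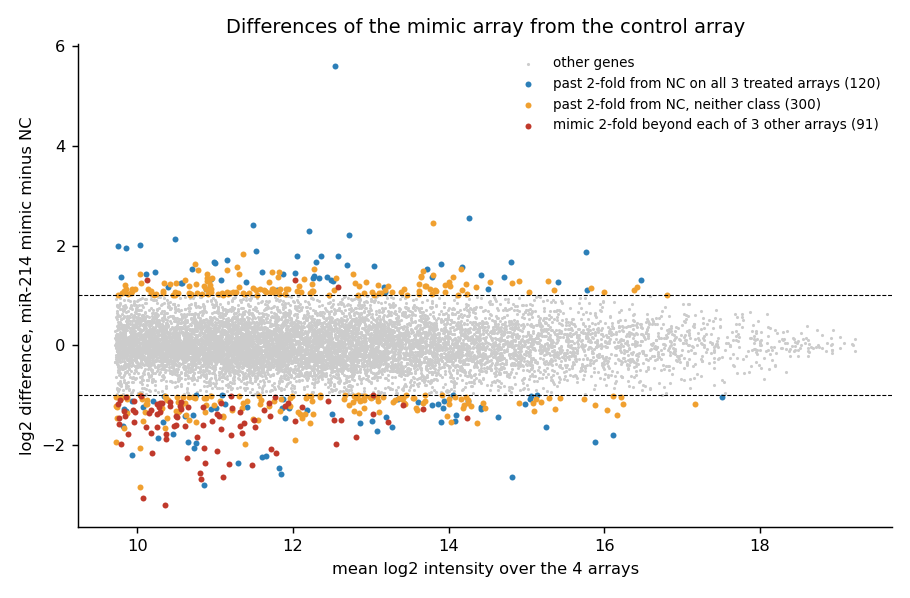
Each point is 1 of 10666 genes, with the mean log2 intensity over the 4 arrays on the x axis and the log2 difference of the mimic array from NC on the y axis; colours separate the genes by whether the siPVT1 arrays lay past 2-fold as well. The 88 genes lower on the mimic array alone lie mostly at the dim end, with 60 of them among the 3556 genes of lowest mean level.

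Without NC, the mimic array was closer to siPVT1-2 than to siPVT1-1. The SD of the log2 difference over all genes was 0.330 between the mimic and siPVT1-2, with 178 genes 2-fold apart, and 0.445 between the mimic and siPVT1-1, with 322. It was 0.491 between the mimic and NC, with 511 genes 2-fold apart. The siRNAs differed from each other with an SD of 0.288 and 53 genes. So the mimic and NC arrays were the least alike of the 6 pairs.

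The genes that differed from NC were then divided by what the siPVT1 arrays showed. Of the 208 higher genes, 55 were higher on both siPVT1 arrays as well, which is 0.516% of all genes, and 43 on 1 of them. The remaining 110 were past 2-fold with the mimic only, at a median difference of 1.11. This choice itself puts both siPVT1 levels under the mimic, and in 96 of the 110 both also lay above NC. All of these differences share the NC value. The median differences of the 110 genes on siPVT1-1 and siPVT1-2 were 0.44 and 0.73. Of the 303 lower genes, 65 were lower on all 3 treated arrays, 0.609% of all genes, and 28 on 1 siPVT1 array. For the other 210 the median difference was -1.21 with the mimic and -0.18 and -0.37 on the siRNA arrays. Here the choice puts both siPVT1 levels above the mimic, and in 138 both also lay under NC.

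A stricter rule asked that the mimic array lie at least 2-fold beyond each of the 3 other arrays. It was met upward by 3 genes, 0.0281% of those compared, and downward by 88, or 0.825%. The same rule applied to the other arrays gave 65 genes upward and 55 downward for NC, 2 and 16 for siPVT1-1, and 7 and 1 for siPVT1-2. Many of the downward genes were dim on the array that stood apart: counting only those whose level there was above the filter left 34 for the mimic, 41 for NC, 6 for siPVT1-1 and none for siPVT1-2. The downward count was larger for the mimic than for NC only with such dim levels included.

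**Figure D2:**
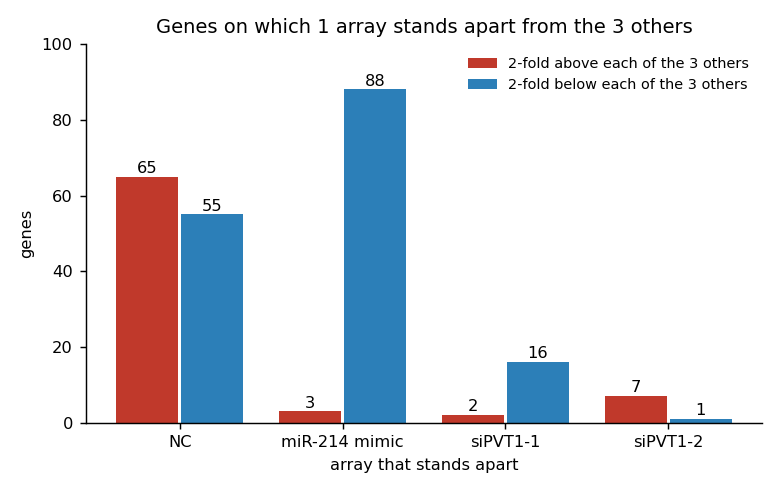
Bars count the genes on which the array named on the x axis lay at least 2-fold above, or at least 2-fold below, each of the 3 others. The mimic array has 3 genes above and 88 below, and NC has 65 above and 55 below.

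The 3 genes higher with the mimic alone were ZNF276, SETSIP and PAK1IP1. ZNF276, a zinc finger gene, read 11.70 on NC, 13.00 on the mimic array, and 11.64 and 11.77 on siPVT1-1 and siPVT1-2. It was thus 2.46-fold above NC while the other 3 arrays lay together. A further ZNF276 probe differed by only 0.28. SETSIP, which is close in sequence to SET so that their signals may mix, read 12.39, 13.55, 11.89 and 12.48 in the same order and was 2.24-fold above NC. PAK1IP1, which encodes a nucleolar inhibitor of the kinase PAK1, read 9.72, 11.03, 9.77 and 10.02. Its NC level lay just under the level filter, so the size of its 2.48-fold difference is uncertain.

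The 88 genes lower with the mimic alone had a median level of 9.45 on the mimic array, against 11.24 on NC, 11.28 on siPVT1-1 and 11.22 on siPVT1-2. The mimic level lay under the level filter for 54 of them, or 61.4%, where for all genes compared this share was 2.34%. These 54 passed the filter, which is set on the mean, only through their levels on the other arrays. As the 88 were picked for low mimic levels, the larger share follows in part from the rule. The gene farthest below the other arrays was SLC22A24, a member of the organic anion transporter family, at 10.76 on NC, 7.68 on the mimic array, and 11.10 and 10.79 on the siRNA arrays, an 8.42-fold difference from NC. TAS2R39, a bitter taste receptor, read 11.37, 8.16, 10.90 and 10.995 and was 9.21-fold lower. HCN4, the pacemaker channel of the heart, read 11.45, 8.76, 11.30 and 11.78 and was 6.45-fold lower.

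Several others are known from sensory, nerve or blood cells. CLC, which encodes the Charcot-Leyden crystal protein of eosinophils, was 5.26-fold lower than NC, and HTR3C, a serotonin receptor subunit, 5.20-fold. GPBAR1, a bile acid receptor, was 5.90-fold lower, TAS2R42 5.16-fold, AOC2 4.81-fold and ADGRE1, a macrophage receptor, 4.49-fold. P2RY8 and OR11G2, which also encode G protein-coupled receptors, were 3.96-fold and 3.70-fold lower. The profiles of LBH, CIMIP2B and the neural repressor gene ZNF536 had the same form, at 6.22-fold, 4.16-fold and 4.50-fold. PSMA6, a subunit of the proteasome core that all cells use, read 11.64 on NC, 9.53 on the mimic array, and 11.52 and 11.42 on the siRNA arrays.

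**Figure D3:**
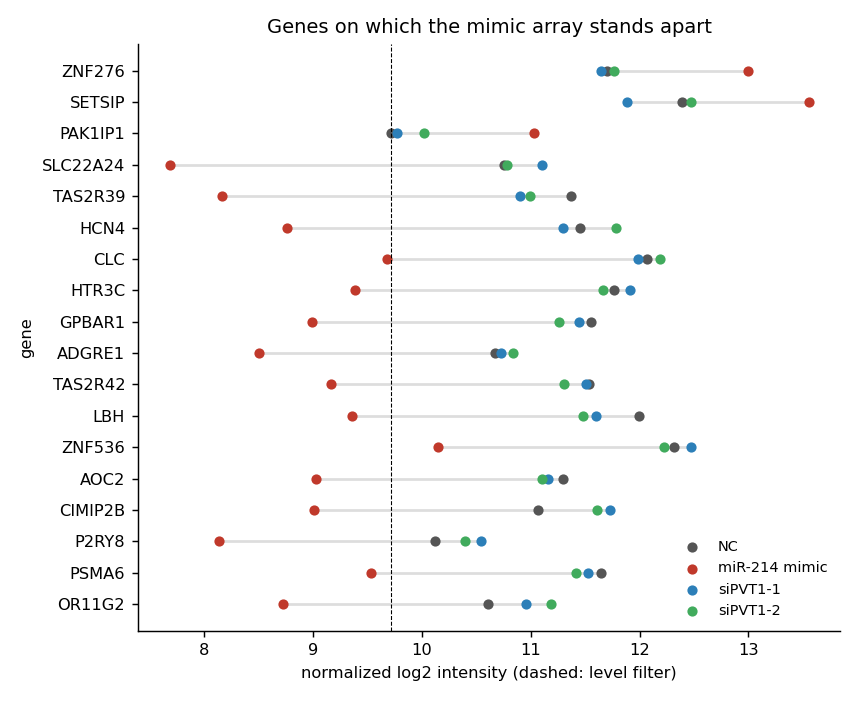
Points give the normalized log2 intensity of each gene on the 4 arrays for the 3 genes higher and the 15 farthest lower with the mimic alone; the dashed line is the level filter at 9.72. For SLC22A24 the mimic point lies at 7.68 and the other 3 lie between 10.76 and 11.10.

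Among 111 olfactory and taste receptor genes compared, a family picked after the values were seen, 12 were lower and none was higher. Of all genes 2.84% were lower and 1.95% higher. The family's median difference was -0.23 with the mimic, -0.04 with siPVT1-1 and -0.23 with siPVT1-2. In this family 7 genes, or 6.31%, were lower with the mimic alone, beside 0.825% of all genes. These shares were not matched for level. Of the 3556 genes of lowest mean level 60 were lower with the mimic alone, and of the 3555 of highest mean level 4 were. Other families picked likewise gave 2 of 23 potassium channel genes, or 8.7%, 1 of 18 keratins, or 5.56%, and 3 of 208 solute carriers, or 1.44%. Zinc finger genes gave 1 of 210, or 0.476%, and ribosomal proteins 0 of 66. An olfactory receptor gene, OR51Q1, was the only gene that met the 2-fold rule with the mimic and, in the opposite direction, on both siPVT1 arrays. It read 10.62 on NC, 9.38 with the mimic, under the level filter, and 11.75 and 11.65 with siPVT1-1 and siPVT1-2. Its differences from NC were -1.24, 1.14 and 1.03.

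Further probes of the same genes give a second reading of these differences. Of the 88 genes, 30 had further probes, and in 6 of these a further probe passed the level filter. For those 6 the sign was the same in 3 and the difference was again past 2-fold in 2, and over all 6 the median was 0.002. In the genes lower on all 3 treated arrays, by contrast, 13 had such a probe, 13 had the same sign and 6 were past 2-fold. In the genes higher on all 3, these counts were 9, 9 and 5. The 88 genes also had 33 further probes under the level filter, of which 13 had the same sign and 1 was past 2-fold. That 1, of RPS4Y2, differed by -1.92, and those of AOC2, GPBAR1 and HCN4 by 0.04, 0.05 and 0.10. Some, such as those of TAF7L and THBD, lay at the floor on every array and could not differ. Genes lower on all 3 treated arrays had 10 such dim probes, with 8 of the same sign and 3 past 2-fold. Genes higher on all 3 had 7, with 2 of the same sign and 2 past 2-fold.

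SGPP1 and ENTPD7 were the 2 genes whose further probe above the filter was again past 2-fold. SGPP1 encodes a phosphatase that removes the phosphate from sphingosine-1-phosphate. Its brightest probe read 14.73 on NC, 13.28 with the mimic, and 14.59 and 14.35 with the siRNAs. Its further probe read 12.31, 11.18, 12.32 and 12.50. On both probes the mimic array was the lowest and the other 3 lay close together. ENTPD7, a nucleoside triphosphate hydrolase of intracellular membranes, read 12.67, 11.17, 13.29 and 13.35, and its further probe 10.62, 9.59, 10.82 and 10.48. Here the further probe's mimic level was under the filter level.

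With the filter set at the 75th percentile of probe levels, 14 genes remained lower with the mimic alone. Besides SGPP1 and ENTPD7 they held GAB1, an adaptor of growth factor receptors, at 13.76, 12.22, 13.40 and 13.52. CRTC1, a coactivator of CREB, read 14.05, 12.78, 14.04 and 13.83. TNFAIP1, an adaptor of a ubiquitin ligase, read 13.25, 12.25, 13.37 and 13.25. NEDD9, a scaffold of focal adhesions, read 11.87, 10.71, 12.68 and 12.47, and OTUD7B, a deubiquitinase, 12.54, 11.43, 12.95 and 12.89. The others were RAX2, CSMD2, OR2T8, LOC403312, LRTOMT, MTRNR2L3 and YIF1B. Of these, YIF1B and LRTOMT had further probes above the filter level that differed by 0.56 and 0.05. Dim further probes of GAB1, CRTC1 and NEDD9 differed by -0.34, -0.07 and 0.56.

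A list of 30 genes published as miR-214 targets in other cells held 23 that were compared. Of these, CDK6 was higher and XBP1 lower by the 2-fold rule, and the list's median difference was -0.09, beside -0.02 for all genes compared. The medians on siPVT1-1 and siPVT1-2 were 0.07 and 0.01. The sign of the mimic median turned when arrays were centred on their medians. The mimic level was the lowest of the 4 arrays for 8 of the 23, and for 29.6% of all genes. By the 2-fold rule 1.95% of all genes were higher and 2.84% lower.

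XBP1, a transcription factor of the unfolded protein response, read 15.36 on NC, 14.08 with the mimic, and 13.99 and 14.21 with the siRNAs. It was therefore lower on all 3 treated arrays. BCL2L2, an antiapoptotic member of the BCL2 family, read 13.67, 12.84, 13.53 and 13.36, and CTNNB1, which encodes β-catenin, 15.45, 14.81, 15.55 and 15.19. In both the mimic array was the lowest, at 1.78-fold and 1.55-fold under NC, short of the 2-fold rule. E2F3, a cell cycle transcription factor, read 13.26, 13.88, 13.22 and 13.30, the highest on the mimic array. EZH2, the Polycomb methyltransferase, read 13.55, 13.46, 13.11 and 13.32. CDK6, the cell cycle kinase, read 9.92, 11.23, 10.24 and 11.05, and a further dim probe differed by 0.22. MYC, which lies beside PVT1, read 13.37, 14.03, 13.50 and 13.69.

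Of the 15 genes highest against NC with levels above the filter on both arrays, most were also past 2-fold with the siRNAs. DKK1, a secreted inhibitor of WNT signalling, read 12.51 on NC, 15.07 with the mimic, and 14.43 and 15.05 with siPVT1-1 and siPVT1-2. EDN2 and EDN1, which encode endothelins, were 5.34-fold and 3.28-fold higher with the mimic, and CCN1 and TM4SF1 3.70-fold and 3.66-fold. KXD1, a lysosome positioning gene, was 4.65-fold higher. STARD7, which encodes a lipid transfer protein, read 8.18 on NC and 13.79, 14.08 and 14.13 on the treated arrays, so its 48.6-fold difference rests on the NC value. ALCAM, an adhesion molecule, read 11.36, 13.15, 12.47 and 12.49. Whether such genes follow the duplexes or the single NC array cannot be told apart.

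On the low side, CMKLR2, a receptor for chemerin, read 12.58 on NC, 9.78 with the mimic, and 10.36 and 10.69 on the siRNA arrays. The mimic array was the lowest for this gene, at 6.97-fold under NC. DHRS2 was 5.53-fold lower, BEX2 5.15-fold and CCDC184 4.66-fold. IGFBP1, a liver-secreted binding protein of insulin-like growth factors, read 12.36, 10.42, 9.71 and 10.11, and DNAJB9, a cochaperone of the endoplasmic reticulum, 12.33, 10.37, 10.23 and 10.08. C2orf78 was lower on all 3 and lowest on siPVT1-2, at 12.87, 10.81, 10.76 and 8.46.

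The amino acid response is driven by the transcription factor ATF4, which is translated when the kinases of the integrated stress response are active and switches on amino acid synthesis, import and tRNA charging. Of 27 genes of this response compared, 12 were lower with the mimic and none was higher. On siPVT1-1 and siPVT1-2, 19 and 18 were lower. Of all genes compared, 2.84% were lower with the mimic, 1.72% with siPVT1-1 and 1.2% with siPVT1-2. The list's median differences were -0.75 with the mimic and -1.59 and -1.20 with the siRNAs, and the median of the mimic minus the mean of both siRNA arrays, which does not use NC, was 0.55. For all genes that last median was -0.012. With arrays centred on their medians, 8 of the 27 were lower with the mimic. By these medians the mimic array lay between NC and the siRNA arrays.

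GDF15, a secreted stress factor, read 16.93 on NC, 14.28 with the mimic, and 13.70 and 14.33 with the siRNAs, and NIBAN1, a stress-response gene, 13.86, 11.28, 10.92 and 11.34. ASNS, asparagine synthetase, read 17.77, 15.83, 14.67 and 15.25. CHAC1, which degrades glutathione, read 12.15, 10.98, 8.48 and 10.56, and INHBE, a secreted factor of the liver, 12.60, 11.18, 9.13 and 9.56. For these last genes both siRNA arrays lay under the mimic array. DDIT3, which encodes CHOP, differed by -0.62 with the mimic and by -2.36 and -1.27 with the siRNAs. PSAT1, of serine synthesis, differed by -1.79, -1.74 and -1.87, and its further probe by -1.46, -2.001 and -1.72. SHMT2, which converts serine to glycine, differed by -1.30, -0.88 and -1.20, and its further probe by -0.76, -0.91 and -1.07. ATF4 itself differed by -0.42, -0.71 and -0.64.

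Of 19 cytosolic aminoacyl-tRNA synthetases, which load tRNAs with their amino acids, 6 were lower with the mimic and none was higher. Over all genes compared, 2.84% were lower and 1.95% higher. MARS1, for methionine, read 16.44 on NC, 14.79 with the mimic, and 14.92 and 14.85 with the siRNAs, and its further probe differed by -1.32, -1.86 and -1.61. WARS1, for tryptophan, differed by -1.54, and its further probe by -1.36. CARS1, YARS1, SARS1 and AARS1 differed by -1.39, -1.20, -1.17 and -1.07. RARS1, for arginine, differed by 0.68 in the other direction. Median centring left 3 of the 19 lower. Of 13 amino acid transporters, 5 were lower and none was higher: SLC1A4, SLC7A11, SLC1A5, SLC6A9 and SLC38A1, at differences of -1.87, -1.57, -1.25, -1.04 and -1.001. SLC7A11, the cystine importer, read 14.32, 12.76, 12.20 and 12.16.

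ATF4 binds C/EBP-ATF response elements, and the promoters of ASNS, CARS1 and MARS1, lower on all 3 arrays, are printed below to show where its letters stand beside a gene's start. XBP1 is added for the stress element of the endoplasmic reticulum. The element was searched as TGATGNAAN on both strands in the 300 bases from 250 before to 50 after each gene's start, in RefSeq promoters of GRCh38.p14. It occurred in 3.67% of 27305 promoters, in 1.87% of the 8755 matched genes compared, and in 15.1% of the 53 genes lower on all 3 arrays that had a promoter. Among the synthetases it occurred in 6 of 16, or 37.5%, among the transporters in 4 of 12, and among the 21 ATF4 list genes in 3. Of the 66 genes lower with the mimic alone that had one, 2, AOC2 and ZNF536, held it. Capitals mark the element in ASNS at chr7:97872359-97872658 on the minus strand, CARS1 at chr11:3057374-3057673 on the minus strand and MARS1 at chr12:57487818-57488117 on the plus strand. In XBP1, at chr22:28800520-28800819 on the minus strand, capitals mark the endoplasmic reticulum stress element.
ASNS: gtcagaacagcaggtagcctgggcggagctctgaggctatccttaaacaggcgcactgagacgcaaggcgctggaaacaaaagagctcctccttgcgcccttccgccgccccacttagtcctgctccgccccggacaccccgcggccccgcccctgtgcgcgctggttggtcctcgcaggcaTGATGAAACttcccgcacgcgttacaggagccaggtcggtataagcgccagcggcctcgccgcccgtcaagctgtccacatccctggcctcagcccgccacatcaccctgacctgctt
CARS1: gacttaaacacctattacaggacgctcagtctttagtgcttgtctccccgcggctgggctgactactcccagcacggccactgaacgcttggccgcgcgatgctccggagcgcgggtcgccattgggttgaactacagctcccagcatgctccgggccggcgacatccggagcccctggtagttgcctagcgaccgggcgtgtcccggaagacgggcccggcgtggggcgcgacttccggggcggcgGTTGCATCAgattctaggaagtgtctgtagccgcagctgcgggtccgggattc
MARS1: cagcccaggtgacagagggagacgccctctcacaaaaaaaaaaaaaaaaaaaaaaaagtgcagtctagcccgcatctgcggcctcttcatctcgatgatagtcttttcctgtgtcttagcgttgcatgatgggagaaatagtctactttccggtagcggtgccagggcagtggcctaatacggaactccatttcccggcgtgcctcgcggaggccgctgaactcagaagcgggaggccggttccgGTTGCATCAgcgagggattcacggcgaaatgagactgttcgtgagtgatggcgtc
XBP1: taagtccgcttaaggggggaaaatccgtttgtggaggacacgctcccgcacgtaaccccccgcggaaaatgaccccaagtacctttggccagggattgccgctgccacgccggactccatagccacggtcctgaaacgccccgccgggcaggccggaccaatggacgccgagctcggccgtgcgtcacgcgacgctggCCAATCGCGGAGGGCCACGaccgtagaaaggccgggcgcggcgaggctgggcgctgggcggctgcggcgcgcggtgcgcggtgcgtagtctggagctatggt

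The match started 68 bases before the start of ASNS, 3 before that of CARS1 and 5 before that of MARS1. The endoplasmic reticulum stress element was found in 0.114% of the genes compared and in 6 of the 21 genes of the chaperone and unfolded protein list. These are matches of letters. Of that list's 22 genes compared, 2, XBP1 and DNAJB9, were lower and none was higher, with a median difference of -0.02 whose sign turned under median centring. Over all genes compared, 2.84% were lower. Besides XBP1, the genes of the list that hold the element were SERP1, CANX, HSP90B1, CALR and CRELD2. With the mimic they differed by -0.93, -0.03, 0.08, 0.12 and 0.30.

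p53 is a transcription factor that halts the cycle and starts repair or death after damage. Of 19 of its target genes compared, 6 were lower with the mimic and none was higher, against 4 lower on each siRNA array. Of all genes compared, 2.84% were lower with the mimic, 1.72% with siPVT1-1 and 1.2% with siPVT1-2. With median centring 3 of the 19 were lower with the mimic. The median differences were -0.71, -0.39 and -0.50. The mimic array was the lowest of the 4 for 11 of the 19, and for 29.6% of all genes. CDKN1A, the cell cycle inhibitor p21, read 13.15 on NC, 10.90 with the mimic, and 11.34 and 11.01 with the siRNAs, and its further probe differed by -1.35, -1.60 and -1.52 on the treated arrays, the mimic nearest to NC. DDB2, a DNA repair factor, read 14.74, 13.32, 14.07 and 13.77, and ZMAT3, an RNA-binding protein, 13.63, 12.36, 12.93 and 12.73. On these probes the mimic was the lowest and the siRNA arrays lay between it and NC. A further ZMAT3 probe above the filter had another order, with -0.35 for the mimic and -1.02 and -0.90 for the siRNAs. TP53I3 read 11.76, 10.89, 11.77 and 11.47, short of the 2-fold rule and the lowest on the mimic. GADD45A and SESN2, which also belong to the ATF4 response, were lower on siPVT1-1 than with the mimic, at -2.001 and -2.43 against -1.13 and -1.11.

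Cells short of oxygen stabilise HIF transcription factors, which switch on genes of angiogenesis, glycolysis and mitophagy. Of 19 such genes compared, 10 were higher with the mimic and none was lower. On siPVT1-1, 6 were higher and 1 lower, and on siPVT1-2, 7 and 1. Of all genes compared, 1.95% were higher with the mimic, 1.25% with siPVT1-1 and 1.33% with siPVT1-2. The list's medians were 1.07, 0.72 and 0.72, and the mimic array was the highest of the 4 for 11 of the 19, against 26.7% of all genes. ADM, adrenomedullin, read 12.53 on NC, 14.99 with the mimic, and 13.49 and 14.19 with the siRNAs. SPAG4 read 10.68, 12.96, 12.39 and 12.80, and LOX, lysyl oxidase, 11.43, 12.95, 12.15 and 12.54. LOX had further probes that differed by 1.97 and 0.08.

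BNIP3, a mitophagy receptor, and EGLN1, the oxygen sensor that marks HIF for decay, differed by 1.10 and 1.07 with the mimic. On both siRNA arrays they were short of 2-fold. A further, dim EGLN1 probe differed by 0.85 with the mimic and by 1.01 and 0.85 with the siRNAs, past 2-fold on siPVT1-1 only. NDRG1 differed by 1.66, 1.80 and 1.89 and was highest on siPVT1-2. VEGFA, the main angiogenic factor, differed by -0.38 with the mimic and by -1.52 and -1.17 with the siRNAs, and was therefore the 1 gene lower on each siRNA array. Of the glycolytic enzymes, 2 of 16 were higher, beside 1.95% of all genes: HK1 at 1.23 and PFKP at 1.15. The hypoxia element, searched as ACGTG and GCGTG on both strands, occurred in 12 of the 15 hypoxia genes with a promoter and in 62.4% of the genes compared. It also occurred in 21 of 21 genes of the chaperone list, in 14 of 16 sterol genes and in 61.0% of the genes higher on all 3 arrays.

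**Figure D4:**
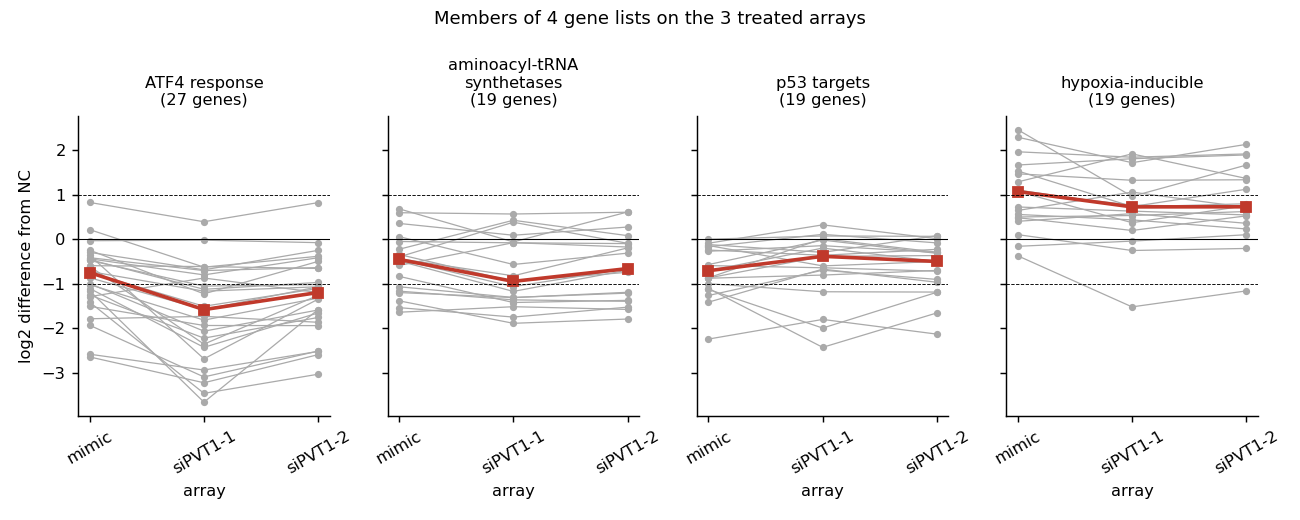
Grey lines join the log2 differences from NC of each member on the mimic, siPVT1-1 and siPVT1-2 arrays for 4 lists, red marks their medians and dashed lines 2-fold. The ATF4 median goes from -0.75 on the mimic array to -1.59 on siPVT1-1, and the hypoxia median from 1.07 to 0.72.

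Sterol genes are switched on by SREBF2 when cholesterol in the endoplasmic reticulum is low. Of 17 compared, 3 were higher with the mimic and none was lower, and the medians of the 3 treated arrays, 0.75, 0.73 and 0.78, were close. With median centring 8 of the 17 were higher. Without it, 1.95% of all genes compared were higher with the mimic. INSIG1, which retains the SREBF2 complex, read 12.71 on NC, 14.34 with the mimic, and 14.27 and 14.30 with the siRNAs. SQLE, squalene epoxidase, read 11.67, 13.02, 12.54 and 12.99. MVK read 9.43 on NC, under the level filter, and 10.49 with the mimic. CYP51A1, lanosterol demethylase, differed by 0.91 with the mimic and by 0.03 and 0.47 with the siRNAs.

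Of 24 mitosis genes compared, 1 was higher with the mimic, beside 1.95% of all genes, and none was lower. It was CCNA2, which encodes cyclin A and read 12.57, 13.62, 12.92 and 13.30. The list's median difference was 0.42, beside 0.31 and 0.37 on the siRNA arrays. The mimic was the highest array for 13 of the 24, and for 26.7% of all genes. AURKB, BUB1 and CDK1, kinases of mitosis, differed by 0.88, 0.76 and 0.69. CENPE, a kinetochore motor, was the farthest in the other direction, at -0.97. Of 24 DNA replication genes none was past 2-fold, with a median of 0.18.

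**Figure D5:**
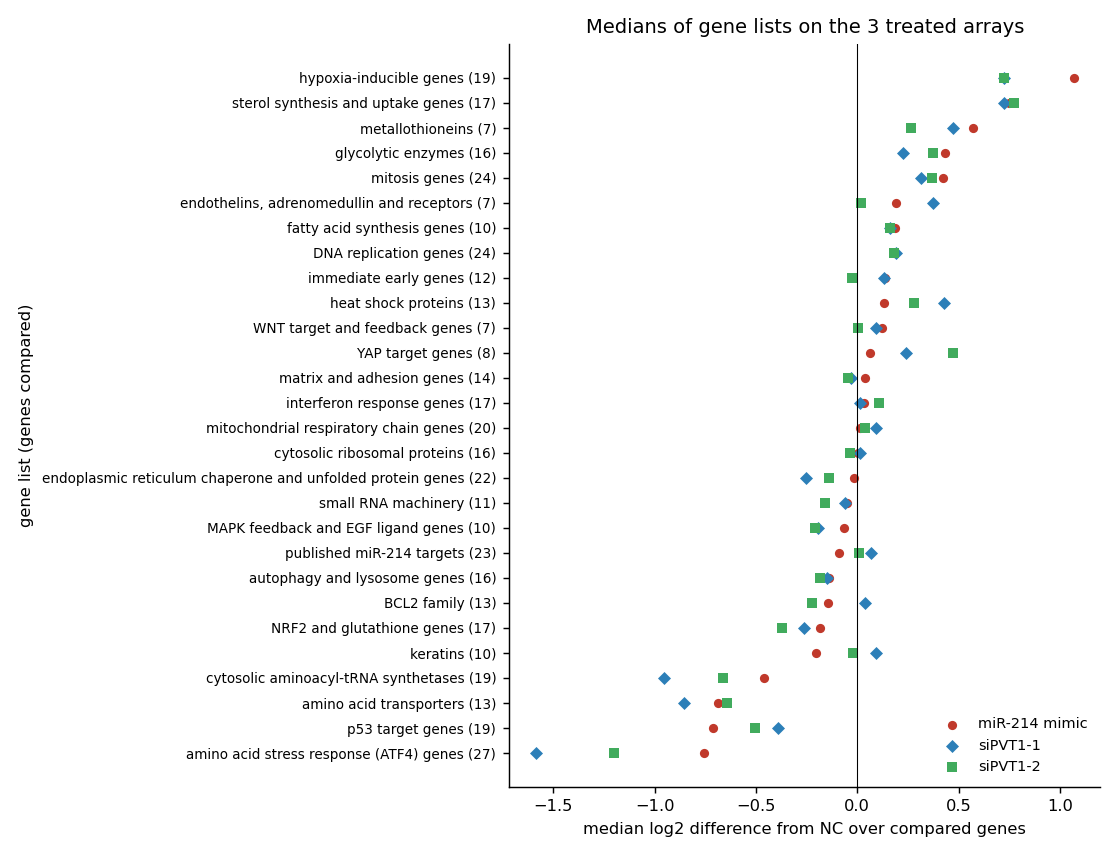
Each row is a gene list, with the number of genes compared in brackets, and points give the median log2 difference from NC on the mimic, siPVT1-1 and siPVT1-2 arrays. The mimic medians run from -0.75 for the ATF4 list to 1.07 for the hypoxia list.

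The remaining lists held few genes past 2-fold. Over all genes compared, 1.95% were higher and 2.84% lower with the mimic. Of 11 genes of the small RNA machinery none was higher or lower, and AGO2, the Argonaute that cuts its targets, differed by 0.03. The same held for 17 interferon response genes, 16 cytosolic ribosomal proteins, 20 respiratory chain genes and 10 fatty acid synthesis genes. Of 7 metallothioneins and related genes, 2 were higher, MT1X at 1.01 and MT4 at 1.42. Of 10 keratins, 2 were higher, KRT19 and KRT8, at 1.27 and 2.02, and KRT8 had an NC level of 8.59, under the filter.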

How the data were processed

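Total RNA of 1 µg per sample was amplified, labelled with Cy5 and hybridised to OneArray Plus arrays in 1 colour, per the labels' protocols. The authors deposited 1 linear intensity per probe, with background already subtracted, as 74 to 131 of 28264 values below 0 on each array show. The scanner software and further steps are not given in the sources used here, and the deposited distributions differed between arrays, with 8.15 to 11.7% of values below 64.

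The 4 arrays were brought to a common distribution by quantile normalization (limma 3.58.1, R 4.3.3). Values under 64 were then raised to 64 before the log2 step. Probes were named by the platform annotation, with symbols updated by Entrez identifier to RefSeq: 25893 probes had 1 gene, 0 several and 2371 none. A gene was read from the probe with its highest 4-array mean. With 1 array per duplex, genes were counted by size alone, and signal over background limits the precision. MicroRNAs of chromosome 8 were not searched for the seed.

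Named genes were taken from the 15 highest and 15 lowest with both levels above the filter, and the 15 each way farthest from the other arrays. Further sources were up to 4 per list, 5 each way shared by the treated arrays, genes of opposite direction, DNM3OS and MYC, and genes at the filter or fold edges. Not every gene that these rules gave is named, and SERINC5 and LCE5A of the 15 lowest are among those left out. Other list members, the brighter genes lower with the mimic alone and the gene families were named after their values were seen. The comparison and the 33 gene lists were chosen with earlier results of these data known. Of 609 list entries 563 had a probe. Alternatives were deposited values, median centring, cyclic loess, other level filters, floors and folds, a mean over probes, every probe, and the rule without NC.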

Additional observations from a re-analysis of the deposited data

How the results depend on the processing

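Counts moved most with the threshold and the level filter. At 1.5-fold, 1009 genes were higher and 1005 lower, with 81 higher and 222 lower for the mimic alone; at 3-fold these counts were 24, 59, 0 and 28. Without the level filter 584 were lower, and 9 were higher and 215 lower for the mimic alone. With the filter at the 75th percentile, 100 were higher, 130 lower and 14 lower for the mimic alone, and with both arrays above the filter level 34 were. Median centring gave 351 higher and 203 lower, which turned the balance of the 208 higher and 303 lower. With the rule applied against both siPVT1 arrays and NC left out, 22 were higher and 108 lower; counting every probe, 5 were higher for the mimic alone. Both of these were chosen after seeing the data. Of the 88 genes lower with the mimic alone, 83 were shared with deposited values, 83 with median centring and 88 with cyclic loess. With a mean over a gene's probes, where 9639 genes were compared, 62 of the 88 were shared. Some named genes with small differences changed sign under a mean over probes. DCN and APOA1 differed by -0.29 and -0.03 on their brightest probes and by 0.55 and 0.14 on further ones. No paired analysis was possible because each duplex has 1 array, and no replicate could be left out. Dim genes are the least certain.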

Other observations

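Probes without a gene name here were read the same way. Of 1003 such probes above the level filter, 17 were at least 2-fold higher and 47 lower with the mimic than with NC. On 1 of them the mimic array stood 2-fold above each of the 3 others, and on 19, or 1.89%, it stood below. Of 13126 named probes above the filter these counts were 4 and 93, the latter 0.709%.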
